A study of Mus musculus with 6 samples.

Results

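The genes described here are 43 factors of ribosome biogenesis and of RNA polymerase I, chosen by symbol from the 24972 rows of the table of untreated bone marrow-derived macrophages from Lcn10-KO and WT mice. The choice was made after the pathway had been seen to be lower in Lcn10-KO, so every difference between the genotypes in these 43 genes is given as a description and supports nothing by itself. All 43 symbols had a row, and all 43 passed the filter on low values, which required 10 or more normalized counts in 3 or more libraries and kept 12091 genes.

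Ribosomes are assembled in the nucleolus. RNA polymerase I transcribes a long precursor that holds ribosomal RNAs of both subunits, though not every one, and small nucleolar ribonucleoproteins (snoRNPs) modify it. A succession of assembly factors cuts, folds and joins it to ribosomal proteins to make the small and the large subunit. The programme is known to rise with growth and proliferation signals, which in macrophages include macrophage colony-stimulating factor, and many of its genes are known targets of the transcription factor MYC.

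The macrophages were grown from bone marrow in medium that held L929 supernatant, which supplies macrophage colony-stimulating factor, and were left untreated in both genotypes. Lcn10-KO mice lack *Lcn10*, which encodes a lipocalin, a kind of secreted carrier, and WT mice are the wild type. The labels used here do not give the kind of knockout allele, the strain, age or sex, nor do they tie the 3 libraries of a genotype to separate mice. P-values here therefore reflect only library-to-library spread, part of which may be technical. All levels are normalized counts, that is, read counts scaled between libraries by the authors. The libraries held about 19300000, 24400000 and 19800000 reads in Lcn10-KO and 18000000, 18000000 and 24800000 in WT. The lowest of the 43 genes in each library was *Polr1e*, with about 127 to 166 reads in Lcn10-KO and 164 to 216 in WT, so counting error alone came to between 6.80% and 8.87% of its value. *Lcn10* was listed at 0 in all 6 libraries, so it cannot check the labels. Macrophage markers were abundant, and the 14 of the list summed to 435816 to 444254 in Lcn10-KO and 398459 to 412732 in WT. Of the markers of other cells, *Ly6g* (neutrophils), *Nkg7* and *Ncr1* (natural killer cells), and *Alas2* (erythroid cells) were at 0 throughout. The marker lists of T and NK, B, dendritic, erythroid and mast cells each summed to at most 58.3 in Lcn10-KO and 43.2 in WT. Neutrophil markers summed to 306 to 344 in Lcn10-KO and 252 to 369 in WT, endothelial markers to 349.7 to 780.4 in Lcn10-KO and 343 to 460.4 in WT, and fibroblast and stromal markers to 3998 to 4485 in Lcn10-KO and 3039 to 4748 in WT. WT replicate 1 stood apart from the other WT libraries in these genes, and values without it are given beside many, though not all, of the results below.

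Features that the choice of the genes by their symbols did not use were read from the reference annotation. In GENCODE M21 (GRCm38, the assembly that mm10 names), 7 of the 43 genes (16.3%) carry small nucleolar RNAs in their introns on the same strand, 21 in all, against 4 of 139 other biogenesis factors (2.88%) and 244 of 11979 tested genes with an annotation (2.04%). The hosts are *Nop56*, *Nop58*, *Dkc1*, *Ncl*, *Gnl3*, *Wdr43* and *Tsr1*, and *Nop56* for example holds *Snord57* and *Snord110*. Their median log2 fold change (Lcn10-KO minus WT) was -0.34, against -0.26 in the other 36. Both medians come from the contrast on which the genes were chosen and include WT replicate 1, so nothing is read from them about the hosts. The deposited values are per gene and do not show whether the intronic RNAs themselves differed.

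RefSeq promoters (GRCm38.p6, 250 bases before and 50 after the annotated start) were found for 39 of the 43 genes, with 43 promoters in all. *Fbl*, *Npm1*, *Bop1* and *Rrp12* had no entry. The hexamer CACGTG, the E-box that MYC with its partner MAX is known to bind and that reads the same on both strands, was present in 9 of the 43 promoters (20.9%), against 15.4% of the 130 promoters of the other biogenesis factors, 10.2% of the 12198 promoters of tested genes and 7.15% of all 32851. The motif CCGGAA, the core of sites for ETS factors, searched on both strands, was in 41.9% of the 43 promoters, 53.1% of those of the other factors and 27.9% of those of tested genes. CCAAT was found in 34.9% against 38.0% of those of tested genes, and TGCGCA, the core of sites for NRF1, in 9.30% against 13.8%, each on both strands. In the other factors these shares were 35.4% for CCAAT and 25.4% for TGCGCA. A match is a description of the sequence and not of binding. To show where the E-box lies, 5 of the 9 stretches of 30 bases around it are printed 5′ to 3′ on the gene's strand, the 5 being those with the largest absolute log2 fold change among the 9, with the hexamer in capitals.
Utp20: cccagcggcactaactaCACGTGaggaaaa
Tsr1: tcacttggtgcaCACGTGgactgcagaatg
Nop2: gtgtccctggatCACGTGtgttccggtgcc
Mybbp1a: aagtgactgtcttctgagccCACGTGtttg
Ltv1: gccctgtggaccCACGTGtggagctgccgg
They lie, in the same build, at chr10:88826765-88826794 (*Utp20*, minus strand), chr11:74898092-74898121 (*Tsr1*, plus strand), chr6:125131811-125131840 (*Nop2*, plus strand), chr11:72441347-72441376 (*Mybbp1a*, plus strand) and chr10:13193092-13193121 (*Ltv1*, minus strand). The hexamer begins at bases 25 and 38 of the transcribed sequence in *Tsr1* and *Utp20*, and 60 bases before the start in *Nop2*. The other 4 genes with the hexamer were *Pes1*, *Pno1*, *Utp18* and *Wdr43*. The 9 genes with the hexamer had a median log2 fold change of -0.26 and the 30 with a promoter entry and no hexamer one of -0.26. These are values of the contrast on which the genes were chosen, and nothing is read from them about the hexamer.

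Resting macrophages of the Lcn10-KO and WT genotypes were then compared. Every one of the 43 genes had a lower mean in Lcn10-KO, with log2 fold changes between -0.54 (*Polr1a*) and -0.049 (*Polr1c*) and a median of -0.27, beside a median of -0.0011 over all tested genes. Summed over the 43 genes, the values made up 0.322%, 0.311% and 0.317% of the library in Lcn10-KO replicates 1 to 3, against 0.424%, 0.349% and 0.364% in WT. All 3 Lcn10-KO libraries lay below the 3 WT libraries in this sum. In 33 of the 43 genes every Lcn10-KO value lay below every WT value, beside 16.9% of all tested genes. By limma, 15 of 43 were lower in Lcn10-KO at a Benjamini-Hochberg adjusted p (over all tested genes) under 0.05, beside 5.14% of all tested genes. In the other direction 0 were higher, beside 4.70%, with 9.84% of all tested genes called in either direction. At an unadjusted p under 0.05, 33 were lower and 0 higher, beside 1675 lower and 1505 higher of all 12091 tested genes. Because the genes were chosen on this contrast, nothing is read from these counts and shares. The 15 were *Polr1a*, *Polr1b* and *Polr1e* of RNA polymerase I, *Fbl*, *Nop58* and *Nolc1* of the snoRNPs, the nucleolar proteins *Ncl* and *Ddx21*, the small subunit factors *Rrp12*, *Utp20*, *Wdr75*, *Tsr1* and *Ltv1*, and the large subunit factors *Rrp1b* and *Noc2l*. In RNA from whole cultures, fewer cells that use a gene and less of its RNA per cell cannot be told apart.

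Without WT replicate 1 the median log2 fold change was -0.17, all 43 genes still had the lower mean in Lcn10-KO, and 18 passed the threshold, 13 of them among the 15, beside 4.66% of all tested genes that were lower. *Polr1e* and *Ltv1* then missed the threshold, and *Nop56*, *Dkc1*, *Mybbp1a*, *Bop1* and *Nop2* passed it. Leaving out Lcn10-KO replicate 1 gave a count of 4, beside 2.28% of all tested genes. Leaving out Lcn10-KO replicate 2 gave 1, beside 0.835% of all tested genes, and leaving out Lcn10-KO replicate 3 gave 1, beside 0.678%. With WT replicate 2 left out the count was 29, beside 7.03%. With WT replicate 3 left out it was 12, among 887 genes called in either direction. *Tsr1* was the one gene called in each of the 6 leave-outs. In limma without the mean-variance trend the count was 0, beside 0.0662% of all tested genes. At an unadjusted p under 0.05 this fit had 28 lower and 0 higher, beside 2713 tested genes in either direction.

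**Figure D1:**
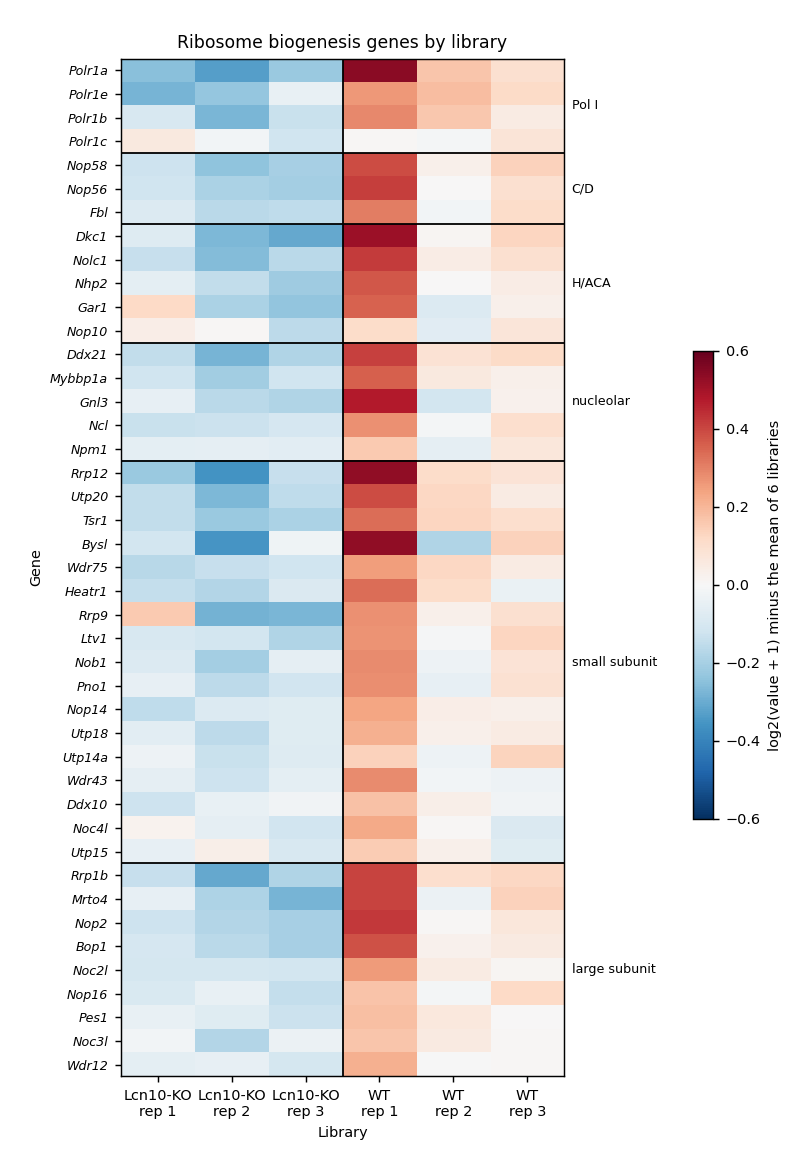
Deviation of each gene from its mean over 6 libraries, as log2(value + 1), with genes grouped by role down the page and the 3 Lcn10-KO libraries left of the 3 WT libraries. WT replicate 1 is the highest library in 42 of 43 rows, and most rows are lower throughout Lcn10-KO.

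RNA polymerase I is a multi-subunit enzyme dedicated to the ribosomal RNA precursor. *Polr1a*, its largest and catalytic subunit (ENSMUSG00000049553.11, chromosome 6, 71909053 to 71984935, plus strand), had 1120.3, 1060.2 and 1145 normalized counts in Lcn10-KO, against 1944, 1499 and 1425 in WT. No Lcn10-KO library reached the lowest WT library, and WT replicate 1 stood well above the other WT libraries. The log2 fold change was -0.54 ± 0.11 (SE), and -0.40 without WT replicate 1. *Polr1b*, the other large subunit of the catalytic core, had 442, 391 and 430.1 normalized counts in Lcn10-KO, against 576, 528 and 489 in WT. *Polr1e*, a subunit that acts in initiation and elongation, had 135, 139.8 and 159 normalized counts in Lcn10-KO, against 197, 187 and 178 in WT. Both were separated between the genotypes, with log2 fold changes of -0.33 ± 0.078 and -0.37 ± 0.11 that came to -0.27 and -0.33 without WT replicate 1. *Polr1c*, which RNA polymerases I and III share, had 657, 625 and 581 normalized counts in Lcn10-KO, against 635, 625 and 666 in WT. Its libraries overlapped between the genotypes, and it was the one gene of the 43 in which WT replicate 1 was not the highest library. *Polr1b*, *Polr1e* and *Polr1c*, like *Npm1*, *Gar1* and *Tsr1* below, were given by library after their values were seen.

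**Figure D2:**
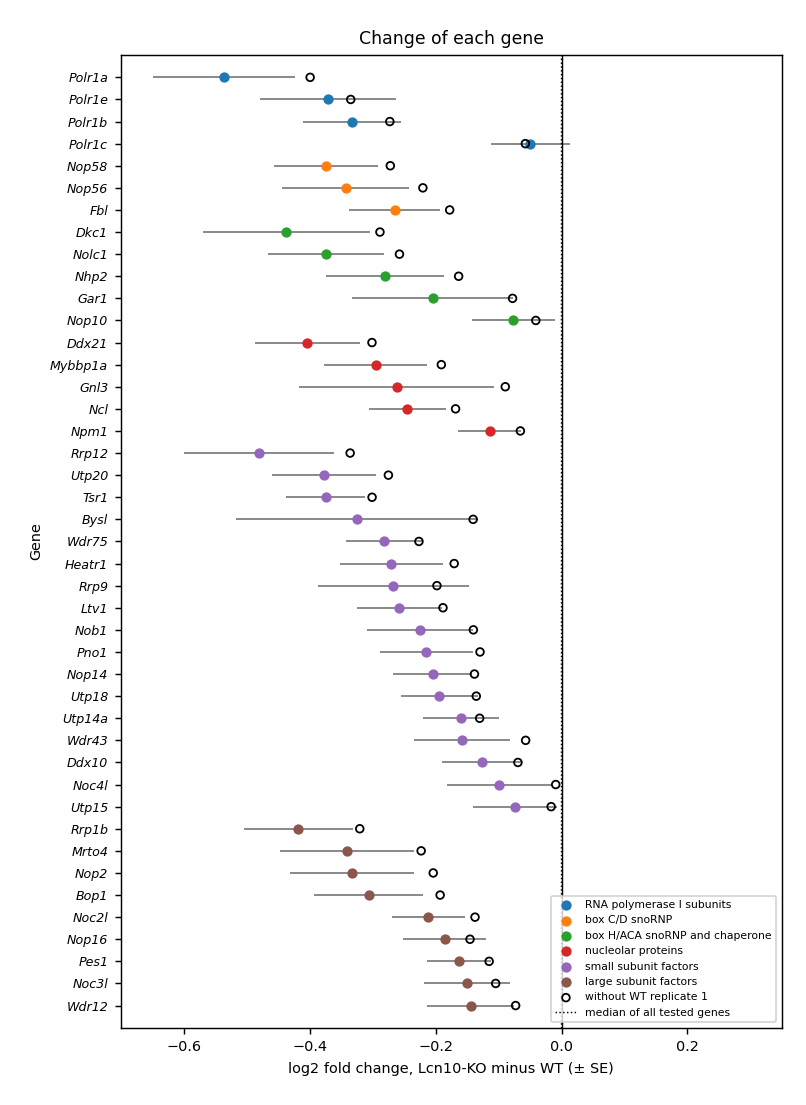
Log2 fold change of each gene (Lcn10-KO minus WT, filled points with SE bars, 3 libraries per genotype), coloured by role, with the value without WT replicate 1 as open circles. All filled points lie below 0, from -0.54 to -0.049, and all open circles do too, most of them nearer to 0.

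Box C/D snoRNPs place methyl groups on ribosomal RNA. *Nop56*, a core protein of these particles (ENSMUSG00000027405.16, chromosome 2, 130274430 to 130279313, plus strand), had 2021, 1929 and 1906 normalized counts in Lcn10-KO, against 2933, 2198 and 2352 in WT. *Nop58*, its partner in the scaffold, had 1686, 1554 and 1601 normalized counts in Lcn10-KO, against 2407, 1877 and 2021 in WT. Groups were separated in both, and the Lcn10-KO libraries were the more alike. Log2 fold changes were -0.34 ± 0.10 for *Nop56*, -0.37 ± 0.083 for *Nop58* and -0.27 ± 0.072 for *Fbl*, the methyltransferase fibrillarin, and without WT replicate 1 they were -0.22, -0.27 and -0.18. Box H/ACA snoRNPs convert uridines to pseudouridines. *Dkc1*, their pseudouridine synthase dyskerin, had 678, 594 and 578 normalized counts in Lcn10-KO, against 1024, 722 and 782 in WT, with a log2 fold change of -0.44 ± 0.13 that came to -0.29 without WT replicate 1. *Nolc1*, a chaperone that binds both kinds of snoRNP, had 1489.5, 1372 and 1467 normalized counts in Lcn10-KO, against 2198, 1693 and 1755 in WT. Its log2 fold change was -0.37 ± 0.093, and -0.26 without WT replicate 1. Both genes were separated between the genotypes, and the highest library was WT replicate 1. The 3 small core proteins of the H/ACA particle were less uniform. *Nhp2* had a log2 fold change of -0.28 ± 0.094 with separated groups, while the groups of *Gar1* and *Nop10* overlapped (-0.20 ± 0.13 and -0.076 ± 0.065). The values without WT replicate 1 of *Nhp2*, *Gar1* and *Nop10* were -0.16, -0.078 and -0.041. *Gar1* had 491, 397 and 384 normalized counts in Lcn10-KO, against 579, 428 and 462 in WT, so that Lcn10-KO replicate 1 exceeded WT replicates 2 and 3.

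Among the nucleolar proteins, *Ncl*, nucleolin, which binds nascent ribosomal RNA (ENSMUSG00000026234.12, chromosome 1, 86344719 to 86359400, minus strand), had 12024, 12068 and 12302 normalized counts in Lcn10-KO, against 15978, 13111 and 14174 in WT. The Lcn10-KO libraries lay within a narrow range below all WT libraries. Its log2 fold change was -0.24 ± 0.062 and -0.17 without WT replicate 1. *Ddx21*, an RNA helicase of the nucleolus (ENSMUSG00000020075.8, chromosome 10, 62580251 to 62602281, minus strand), had 3422, 3127 and 3346 normalized counts in Lcn10-KO, against 5033, 4021 and 4102 in WT. Separation was wide here, with a log2 fold change of -0.40 ± 0.083 and of -0.30 without WT replicate 1. *Npm1*, nucleophosmin, had 10990, 11013 and 10956 normalized counts in Lcn10-KO, against 12725, 11019.6 and 11992 in WT. The lowest WT library of *Npm1* exceeded the highest Lcn10-KO library by less than 10 normalized counts, and the log2 fold change of -0.11 ± 0.050 was the smallest of this group, and came to -0.065 without WT replicate 1. *Mybbp1a*, a MYB-binding protein of the nucleolus, had a log2 fold change of -0.30 ± 0.082 with separated groups, and of -0.19 without WT replicate 1. *Gnl3*, the GTP-binding protein nucleostemin, had one of -0.26 ± 0.15 with overlapping groups, and of -0.089 without WT replicate 1.

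The 17 small subunit factors act in the small subunit processome, which forms around the U3 snoRNP, and in the later steps of small subunit maturation. *Rrp12*, a repeat protein of subunit maturation and export (ENSMUSG00000035049.4, chromosome 19, 41862851 to 41896173, minus strand), had 487, 444 and 518 normalized counts in Lcn10-KO, against 823, 615 and 603 in WT, with a log2 fold change of -0.48 ± 0.12 that came to -0.34 without WT replicate 1. *Utp20*, a large scaffold of the processome, had 1475, 1354 and 1469 normalized counts in Lcn10-KO, against 2142, 1779 and 1687 in WT. *Tsr1*, a GTPase-like factor of late small subunit precursors (ENSMUSG00000038335.13, chromosome 11, 74898071 to 74909342, plus strand), had 1017, 968 and 987 normalized counts in Lcn10-KO, against 1422, 1232 and 1209 in WT. In these 3 genes the groups were separated by more than the range within Lcn10-KO. The log2 fold changes of *Utp20* and *Tsr1* were -0.38 ± 0.083 and -0.37 ± 0.063, and without WT replicate 1 -0.28 and -0.30. Of the factors that join the precursor during transcription, *Wdr75* (-0.28 ± 0.060), *Heatr1* (-0.27 ± 0.082) and *Wdr43* (-0.16 ± 0.077) were separated between the genotypes and *Utp15* (-0.074 ± 0.066) was not. Among the other processome proteins, *Utp18* (-0.19 ± 0.062) and *Nop14* (-0.20 ± 0.062) were separated. *Utp14a* (-0.16 ± 0.061), *Noc4l*, the partner of *Nop14* (-0.099 ± 0.083), the helicase *Ddx10* (-0.13 ± 0.063) and *Rrp9*, a protein of the U3 snoRNP (-0.27 ± 0.12), overlapped. In late maturation, *Ltv1* (-0.26 ± 0.067), *Nob1*, the nuclease that makes the end of the mature RNA of the subunit (-0.23 ± 0.084), and its partner *Pno1* (-0.22 ± 0.074) were separated, and *Bysl* (-0.33 ± 0.19) overlapped. *Rrp9* overlapped because Lcn10-KO replicate 1, at 356 normalized counts, lay above WT replicates 2 and 3 at 326 and 341. Without WT replicate 1 the log2 fold changes of the 17 ran from -0.34 to -0.0092.

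All 9 large subunit factors were separated between the genotypes, beside 16.9% of all tested genes with every Lcn10-KO value below every WT value. The 9 are among the genes chosen on this contrast, so nothing is read from that count. By limma 2 of the 9 passed the threshold, and 4 without WT replicate 1. *Rrp1b*, a nucleolar protein of large subunit precursors (ENSMUSG00000058392.13, chromosome 17, 32036100 to 32062865, plus strand), had 427, 380.02 and 415 normalized counts in Lcn10-KO, against 623, 504 and 513 in WT, with a log2 fold change of -0.42 ± 0.086 that came to -0.32 without WT replicate 1. *Noc2l*, a factor of early large subunit precursors, had 2473, 2477 and 2468 normalized counts in Lcn10-KO, against 3176, 2756 and 2684 in WT. Lcn10-KO libraries of *Noc2l* agreed within 10 normalized counts, and its log2 fold change was -0.21 ± 0.058, and -0.14 without WT replicate 1. Its partner *Noc3l* had one of -0.15 ± 0.068. The complex of *Pes1*, *Bop1* and *Wdr12*, which acts in the processing of the large subunit RNA, had log2 fold changes of -0.16 ± 0.051, -0.31 ± 0.086 and -0.14 ± 0.069. *Nop2*, a methyltransferase of the large subunit RNA, *Mrto4*, which acts in assembly of the ribosomal stalk, and *Nop16* had values of -0.33 ± 0.099, -0.34 ± 0.11 and -0.19 ± 0.066. Without WT replicate 1 the log2 fold changes of the 9 ran from -0.32 to -0.073. Exons of 14 of the 43 genes overlap those of a gene on the opposite strand, among them *Polr1a*, *Nop56*, *Dkc1*, *Bysl* (with *Ccnd3*), *Tsr1* and *Rrp1b*. Without known strand use, reads from such a pair cannot be told apart. *Mrto4* has 2 annotated pseudogenes that bear its name and can share reads. Pseudogenes annotated under other names were not counted, so the same can hold for others of the 43 genes.

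**Figure D3:**
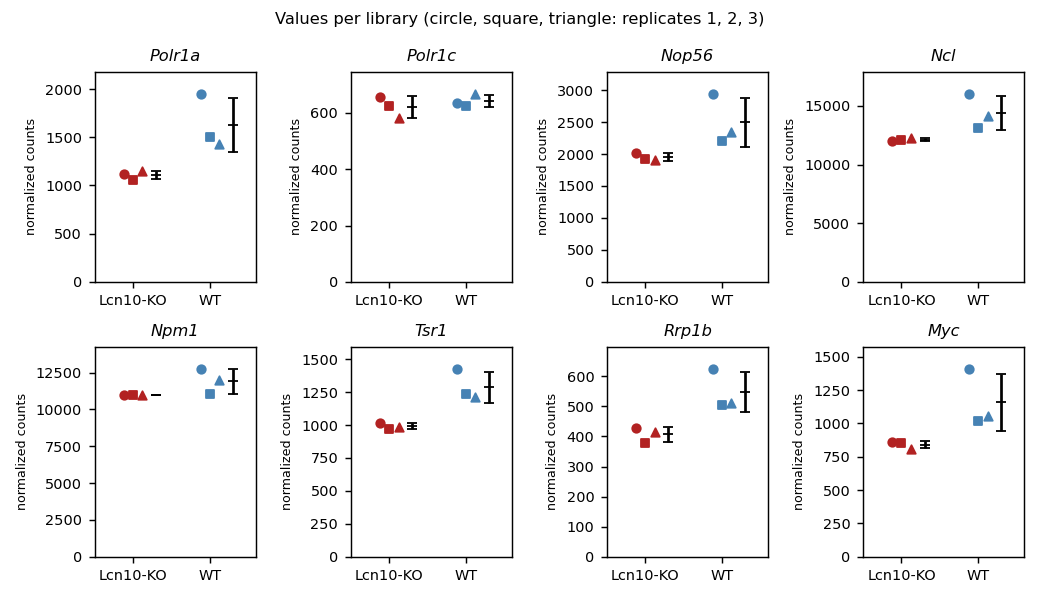
Normalized counts of 8 genes in each library (points, with shape for the replicate), Lcn10-KO left of WT, and the mean ± SD of 3 libraries in black. The groups are separated in all of these except *Polr1c*, and the circle, replicate 1, is the highest WT point in each of the others.

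The libraries did not contribute alike. The mean deviation of the 43 genes from their average over the 6 libraries was -0.086, -0.17 and -0.14 in Lcn10-KO, against 0.31, 0.025 and 0.063 in WT, on the log2 scale. WT replicate 1 was the highest of the 6 libraries in 42 of the 43 genes, beside 29.1% of all tested genes and 71.2% of the other biogenesis factors. Genes chosen as lower in Lcn10-KO tend to have a WT library as their highest. Among the 3 WT libraries alone, WT replicate 1 was the highest in 42 of the 43 genes. The shares were then 38.6% of all tested genes and 78.4% of the other factors. The median SD of the 43 genes on the log2 scale was 0.057 in Lcn10-KO and 0.16 in WT, and 0.055 between WT replicates 2 and 3. Over all tested genes these medians were 0.067, 0.090 and 0.060. WT replicates 2 and 3 alone lay above all 3 Lcn10-KO libraries in 33 of the 43 genes, beside 20.0% of all tested genes. Where WT replicate 1 is the highest library, leaving it out cannot change the separation. The 33 therefore repeats the earlier count and is no further check on that library.

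Genes of the pathway outside the 43 were taken from a list of 140, drawn up from knowledge of ribosome biogenesis. The pathway itself was chosen after it had been seen to be lower in these same libraries. The counts and shares of this list are therefore a description too, and give no independent support. Of 139 that passed the filter, 19 fell in Lcn10-KO by limma (adjusted p under 0.05), which is 13.7% beside 5.14% of all tested genes, 0 rose, beside 4.70%, and 120 did not pass. At an unadjusted p under 0.05 there were 55 lower and 2 higher, beside 1675 lower and 1505 higher of all 12091 tested genes. The median log2 fold change was -0.13, and 115 of 139 values were negative. Without WT replicate 1 the list had 14 genes lower, each of them among the 19, beside 4.66% of all tested genes. It then had 0 higher and a median of -0.081. *Ddx27*, *Wdr74*, *Ruvbl1*, *Tcof1* and *Pop5* then missed the threshold. Leaving out Lcn10-KO replicate 1 gave 7, beside 2.28% of all tested genes. Leaving out Lcn10-KO replicate 2 or 3 gave 0, beside 0.835% and 0.678%. At an unadjusted p under 0.05 these fits had 34 and 41 lower, beside 2238 and 2541 tested genes in either direction. Leaving out WT replicate 2 gave 36, beside 7.03%, and leaving out WT replicate 3 gave 16, among 887 genes called in either direction. Limma without the trend gave 0, beside 0.0662%. At an unadjusted p under 0.05 it had 35 lower, beside 2713 tested genes in either direction. Small subunit factors had 5 of 42 genes lower and a median of -0.13, and large subunit factors 8 of 52 and -0.14. Calls were also made in the exosome with RNase MRP, with 4 of 23 lower, and the snoRNP assembly factors, with 2 of 11. The calls without WT replicate 1 were 5 for the small subunit, 6 for the large subunit, 3 for the exosome with RNase MRP and 0 for snoRNP assembly. The medians of the small and large subunit lists were then -0.066 and -0.083. *Rpp25* did not pass the filter.

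*Mdn1*, the giant ATPase that remodels large subunit precursors, had 1397, 1339.8 and 1371 normalized counts in Lcn10-KO, against 2169.8, 1750.4 and 1643 in WT. Its log2 fold change of -0.43 ± 0.092 was the largest in size among the called genes of this list (limma adjusted p = 0.0268, and 0.000484 to 0.127 over the 14 alternatives). *Ebna1bp2*, another large subunit factor, had 951, 883 and 898 normalized counts in Lcn10-KO, against 1206, 1066 and 1098 in WT (adjusted p by limma = 0.0107). *Rrp15* and *Ccdc86* of the large subunit group fell by 0.35 and 0.28 on the log2 scale. Of the small subunit factors, *Riok2*, a kinase of late maturation, *Wdr46* and *Utp4*, both of the processome, and *Bms1*, its GTPase, fell by 0.35, 0.35, 0.29 and 0.18. The exosome is the nuclease complex that trims ribosomal RNA precursors, and its subunits *Exosc2*, *Exosc5* and *Exosc10* fell by 0.31, 0.29 and 0.21. *Pop5*, a protein of RNase P and RNase MRP, fell by 0.25. *Ruvbl1*, an ATPase of snoRNP assembly, and *Tcof1*, treacle, which acts in transcription of ribosomal RNA genes, fell by 0.20 and 0.19, and both missed the threshold without WT replicate 1, as did *Pop5*. In 50 of the 139 tested genes of the list every Lcn10-KO value lay below every WT value, beside 16.9% of all tested genes. Every Lcn10-KO value lay above every WT value in 5, *Nop53*, *Nsa2*, *Sbds*, *Rrp1* and *Rbm34*, beside 15.5% of all tested genes. These 5 did not pass the threshold. *Nop53*, a large subunit factor chosen here after its values were seen, had 1858, 2063 and 1867 normalized counts in Lcn10-KO, against 1492, 1757 and 1719.98 in WT (log2 fold change 0.22 ± 0.067, limma adjusted p = 0.0573).

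The remaining subunits and initiation factors of RNA polymerase I had 0 of 11 genes past the limma threshold. At an unadjusted p under 0.05 they had 3 lower and 0 higher, beside 1675 lower and 1505 higher of all 12091 tested genes. Their median log2 fold change was -0.050, or -0.021 without WT replicate 1. *Ubtf*, the upstream binding factor of ribosomal RNA genes, had 2558, 2373 and 2495 normalized counts in Lcn10-KO, against 2686, 2719.6 and 2683 in WT (log2 fold change -0.12 ± 0.043, limma adjusted p = 0.0886). *Rrn3*, which brings the polymerase to the promoter, had 985, 967 and 1009.8 normalized counts in Lcn10-KO, against 1228, 1093 and 1017 in WT (log2 fold change -0.17 ± 0.065, limma adjusted p = 0.125). In both the groups were separated without passing the threshold. Without WT replicate 1 the log2 fold changes of *Ubtf* and *Rrn3* were -0.13 and -0.094 (limma adjusted p = 0.0880 and 0.343). *Cd3eap*, the partner of *Polr1e* in the polymerase, had 365, 353 and 348 normalized counts in Lcn10-KO, against 515, 399 and 408 in WT (log2 fold change -0.30 ± 0.093, limma adjusted p = 0.0576, and 0.149 without WT replicate 1). *Polr1d*, which pairs with *Polr1c* and is likewise shared with RNA polymerase III, overlapped between the genotypes, with a log2 fold change of -0.050 ± 0.054. None of the 10 subunits specific to RNA polymerase III, of the 8 specific to RNA polymerase II and of the 5 shared by all 3 enzymes passed by limma, with 0 lower in each list and 1, 1 and 0 higher at an unadjusted p under 0.05. Their median log2 fold changes were -0.022, -0.011 and -0.044. The medians without WT replicate 1 were 7.9e-05, -0.0062 and 0.0016, again with 0 calls. *Cd3eap* and *Polr1d* were named after their values were seen. The difference between these lists and the RNA polymerase I subunits was not tested.

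**Figure D4:**
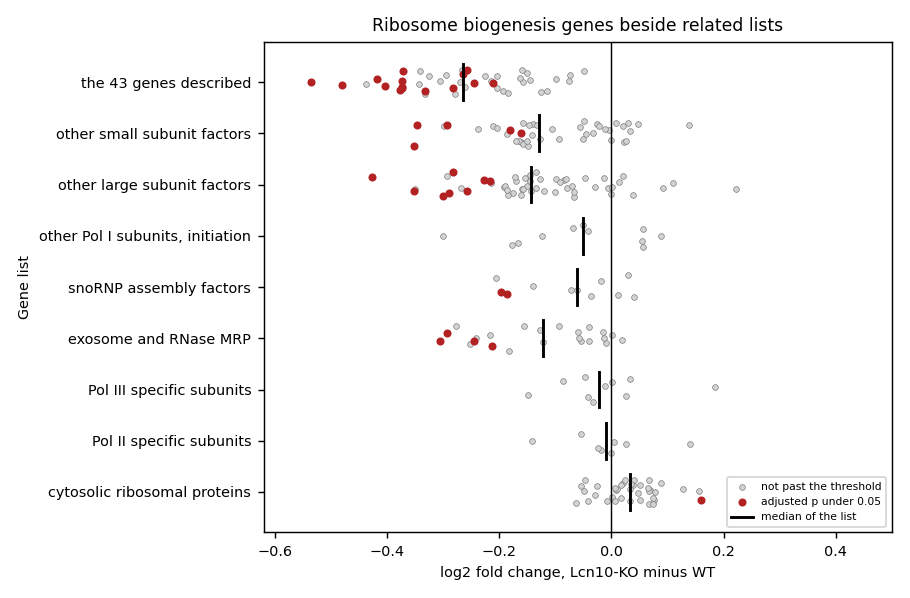
Log2 fold change (Lcn10-KO minus WT) of each tested gene in 9 lists, 1 point per gene, with red for limma adjusted p under 0.05 and a black bar for the list's median. The 43 genes, which were chosen on this contrast, have their median at -0.27, the subunits of RNA polymerases III and II lie around 0, and the ribosomal proteins lie mostly above 0.

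The 38 cytosolic ribosomal proteins of the list, the cargo of this pathway, had a median log2 fold change of 0.034, and of 0.038 without WT replicate 1. Past the threshold were 1 higher gene, *Rps14*, and 0 lower, beside 4.70% and 5.14% of all tested genes. At an unadjusted p under 0.05 there were 3 higher and 0 lower, beside 1505 higher and 1675 lower of all 12091 tested genes. *Rps14* had 12006, 12214 and 11302 normalized counts in Lcn10-KO, against 10384, 10536 and 10871 in WT and rose by 0.16 (limma adjusted p = 0.0353, and 0.0325 to 0.177 over the 14 alternatives). It missed the threshold with any 1 Lcn10-KO library left out and without the trend, and many ribosomal protein genes have near-identical copies that can share reads. The mean deviation of the list was 0.036, 0.073 and -0.058 in Lcn10-KO, against -0.0086, -0.048 and 0.0054 in WT, so that WT replicate 1 did not stand apart in it. *Myc*, the transcription factor known to drive ribosome biogenesis genes, had 860.1, 852 and 811 normalized counts in Lcn10-KO, against 1405, 1019.98 and 1053 in WT. The groups were separated and WT replicate 1 was again the highest, and *Myc* missed the threshold with a log2 fold change of -0.45 ± 0.12 (limma adjusted p = 0.0528). Without WT replicate 1 the log2 fold change was -0.30 and passed (limma adjusted p = 0.00163). Over the 14 alternatives the adjusted p of *Myc* in limma ran from 0.00163 to 0.163, with 4 of them under 0.05, so its call depends on which libraries and settings enter. Its partner *Max*, named likewise after its values were seen, had a log2 fold change of 0.017 ± 0.047 with overlapping groups. *Mxd4*, a repressor of the same network singled out after its values were seen, had 504, 469 and 540.1 normalized counts in Lcn10-KO, against 299, 435 and 389.7 in WT (log2 fold change 0.44 ± 0.13, limma adjusted p = 0.0573, 0.0233 without WT replicate 1 and 0.00937 to 0.179 over the alternatives). Of 12 tested genes of the MYC network, 0 passed by limma, with 1 lower and 3 higher at an unadjusted p under 0.05, and without WT replicate 1 the calls were 1 lower, *Myc*, and 1 higher, *Mxd4*.

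Some markers of proliferation and of macrophages also differed between the genotypes. Of 20 cell cycle genes, 8 fell, 1 rose and 11 did not pass by limma, beside 5.14% lower and 4.70% higher of all tested genes. The 20 summed to 90029.7 to 90989 in Lcn10-KO and 95742 to 101437 in WT. The 8 were *Mcm2* to *Mcm7*, the subunits of the replicative helicase, with *Tyms* and *Rrm2*, enzymes of nucleotide synthesis. The one that rose was *Ccnb2*, a cyclin of mitosis. *Mki67*, *Top2a*, *Cdk1*, *Aurkb* and *Plk1* were among the 11 that did not pass. The mean deviation of the list was -0.055, -0.067 and -0.041 in Lcn10-KO, against 0.082, -0.0076 and 0.088 in WT, where WT replicates 1 and 3 were both high. The same 9 genes passed without WT replicate 1. Macrophage markers deviated the other way, by 0.082, 0.084 and 0.030 in Lcn10-KO, against -0.14, 0.022 and -0.078 in WT, with WT replicate 1 the lowest. Of the 14 macrophage markers, 2 fell and 4 rose, beside 5.14% lower and 4.70% higher of all tested genes. Without WT replicate 1, 2 fell and 6 rose, beside 563 lower and 582 higher of all 12091 tested genes. Mast cell markers summed to 47.4 to 58.3 in Lcn10-KO and 30.7 to 43.2 in WT and B cell markers to 33.6 to 40.1 in Lcn10-KO and 17.9 to 32.7 in WT, low in all libraries with the groups apart. The part of proliferation, of macrophage maturity or of WT replicate 1 in the values of the ribosome biogenesis genes was not tested.

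**Figure D5:**
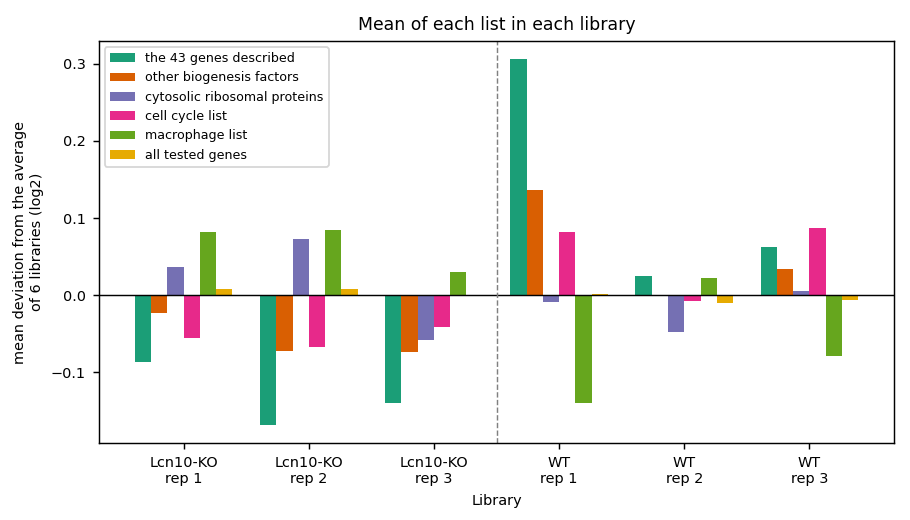
Mean deviation from the average of 6 libraries (log2 scale) of 6 gene lists in each library, Lcn10-KO left of WT. In WT replicate 1 the 43 genes stand at 0.31, above all other bars, while the bars of all tested genes stay near 0.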

How the data were processed

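The deposited values are normalized counts, a scaled signal per gene that the authors made comparable between libraries, as the decimals and the near-equal library totals show. DESeq2, Salmon 0.11.2, STAR 2.6.1a and bcl2fastq, and the mm10 build, are named per the submitters' processing notes. What each did, the annotation, filters and strand use are not given in the sources used. The value of 1 read was estimated from low values as 0.8242 to 1.1408, which gave the approximate depths, and 73.6% to 85.3% of values under 60 were then whole within 0.1 reads. Whole reads were therefore not recovered and no count model was run. The percentages of counting error given for *Polr1e* cover counting alone, and SDs and SEs reflect the spread between libraries.

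Genes with 10 or more normalized counts in 3 or more libraries entered limma 3.58.1 (R 4.3.3), with trend and robust settings, on log2(value + 1), which understates changes of low genes. P-values were Benjamini-Hochberg adjusted over all tested genes at 0.05, and the code was tested on simulated data. Alternatives were other scalings, filters, pseudocounts, no trend, a replicate block and each library left out. The 43 genes, the other lists and their rules were chosen with earlier results of these data known. Values per library are given, in each role group, for the gene with the highest mean and for that with the largest absolute log2 fold change. Of the other lists, up to 4 called genes with the smallest p in each direction are named, with *Myc*, *Ubtf* and *Rrn3* whatever their values. Any further gene was picked once its values had been seen. Protein sequences were not analysed here. Of 13 mitochondrially encoded genes on the marker list, 0 had a row in the table.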

Additional observations from a re-analysis of the deposited data

How the results depend on the processing

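All 43 genes kept a log2 fold change below 0 under each of the 14 alternatives, and 0 of them were called higher. The count of all genes called was 1190 and came to 14 without the trend. Without the trend 0 of the 43 genes and 0 of the other factors were lower. At an unadjusted p under 0.05 this fit had 28 and 35 lower, beside 2713 tested genes in either direction. Leaving out 1 library gave 173 to 1652 genes called, 1 to 29 of the 43 genes lower with a median of -0.32 to -0.17, and 0 to 36 of the other factors lower and 0 to 1 higher, with a median of -0.15 to -0.081. The low counts came without Lcn10-KO replicate 2 or 3, and the cause was not tested.

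With the replicate number as a block, 29 of the 43 genes and 30 of the other factors were lower and 1 other factor was higher, among 1607 genes called in all (1190 without the block). The labels do not say that a number marks a shared mouse or day, so the numbers were not taken as pairs. Deviations of same-numbered libraries correlated at 0.038, 0.073 and 0.014, and 5 of 6 libraries correlated best with their own number. These correlations are small and do not settle whether the numbers mark pairs, and the counts differ between the fits with and without the block.

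With quantile normalization 13 of the 43 genes were lower, among 1168 genes called in either direction. With no filter the count was 14, among 1062, and with a filter at a value of 50 it was 16, among 1279. It was 15 after median-ratio rescaling, among 1201, and with a pseudocount of 0.5 or 10, among 1188 and 1223. With 3 libraries per genotype, 1 library can decide a call at these effect sizes.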
